A study of Saccharomyces cerevisiae with 54 samples.

Results

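RM11a is a haploid vineyard strain of the budding yeast Saccharomyces cerevisiae, and its transcript levels were set against those of 16 other non-laboratory strains. The arrays were taken by their titles, and 3 of the 54 arrays in the series carried RM11a. The other 51 carried B1, I14, K1, K9, M8, M22, PR, SB, Y1, Y10, Y12, YJM269, YJM308, YJM789, YPS163 and YPS1009. On every array the strain was hybridized together with DBY8268, the laboratory reference, which is an S288c derivative, diploid, and carries ho and mutant ura3 alleles on both homologues. All cells were grown untreated in YPD, a rich medium with glucose, and were collected at an optical density near 0.5 from cultures kept at 30°C. The study's strain table gives RM11a and YJM789, a clinical isolate, as haploid, and the other strains, where it states a ploidy, as diploid or polyploid. RM11a is represented by 1 strain grown in 3 cultures, so the p-values below measure the spread between cultures of single strains. DBY8268 had no arrays of its own, and any spread of it between arrays enters the ratios and cannot be separated from that of the strains.

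A haploid yeast cell expresses the genes of its own mating type, namely a or alpha, together with haploid-specific genes of pheromone signalling that are repressed in diploids, which carry both mating types. Mother and daughter cells are parted after cytokinesis by hydrolases that digest the septum between them, and AMN1 encodes an antagonist of mitotic exit. In crosses between RM11a and laboratory yeast, AMN1 is known as a locus that affects the expression of daughter-specific genes. The mitochondrial genome encodes a few subunits of the respiratory chain and of ATP synthase, and several of its genes hold introns with reading frames of their own, which some strains have and others lack.

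The values are log2 ratios of the strain over DBY8268, so that 0 marks the level of the laboratory strain and 1 a doubling. Replicates 1, 2 and 3 of RM11a had values for 4594, 4871 and 3478 genes, against a range of 3393 to 5897 over all arrays. Replicates 1 and 2 resembled each other (Pearson r = 0.884 across 4444 genes, which are not independent replicates), while replicate 3 correlated with them at 0.454 and 0.508. Replicate 3 correlated at 0.738 with replicate 2 of YJM789, which lay on another slide and had the opposite dye orientation. Replicate 3 was also the RM11a array with the dyes inverted, so the dye orientation and this culture cannot be told apart. On replicate 3, 73 genes lay more than 3 log2 units above the mean of the other RM11a arrays, and on replicate 2 of YJM789 64 of the 66 of them that could be compared were also above the other YJM789 arrays. They included PMP1 and PMP2, small regulators of the plasma membrane proton pump, which read 6.78 and 7.34 on RM11a replicate 3 and 6.79 and 7.26 on YJM789 replicate 2. The mating-type genes on replicate 3 fitted its label, as described below. Results that rest on replicate 3 are therefore given with and without it. All 3 RM11a arrays belonged to 1 of the 4 slide series, and each shared its slide with the YJM789 array of the same number.

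Differences from the mean of the other 16 strains, each strain weighted equally, were tested for 4531 genes with at least 2 RM11a values. RM11a was higher for 180 of them (3.97%) and lower for 104 (2.3%) at a false discovery rate of 0.01, and the median difference over all genes was 0.09. Without replicate 3, 122 of 4442 were higher (2.75%) and 72 lower (1.62%). With each array centred on its median, 148 were higher and 144 lower. Against DBY8268 itself, 298 of 4533 genes were higher (6.57%) and 226 were lower (4.99%). Of the 180 genes higher than in the other strains, 65 were not called against DBY8268. Of the 104 lower genes, 12 were not. For 127 genes (2.8% of those tested) every RM11a value lay above the mean of every other strain, and for 42 genes (0.927%) every value lay below. Among the called genes 168 belonged to none of the lists of genes used here. Within the slide series that held RM11a, where most other strains had 1 array, 42 genes were higher (0.93% of 4518) and 34 lower (0.753%).

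**Figure D1:**
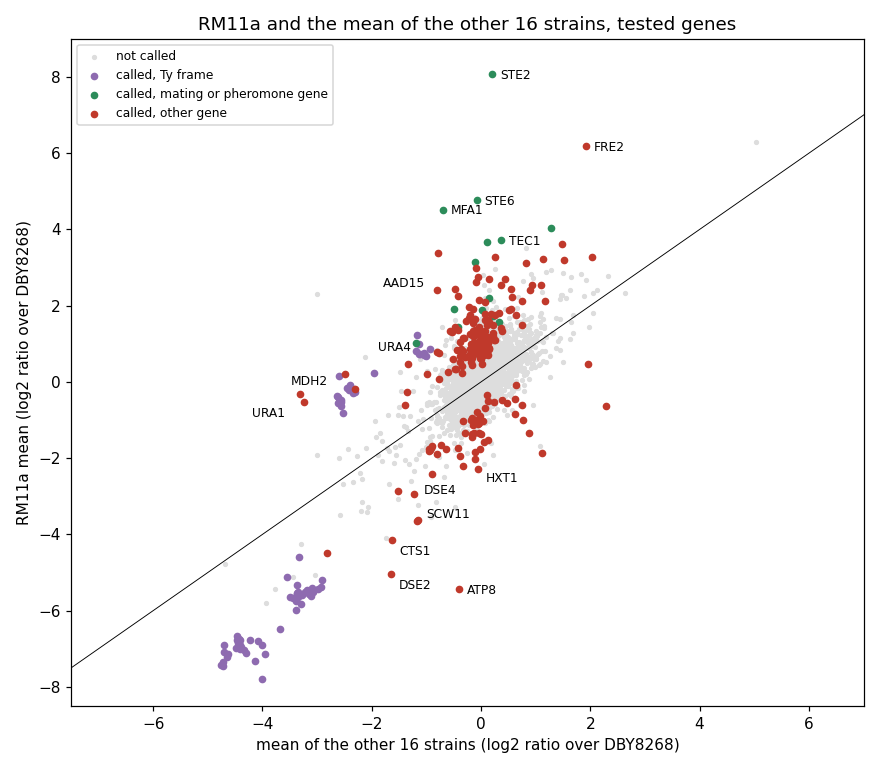
RM11a mean against the mean of the other 16 strains for each of the 4531 tested genes, both as log2 ratios over DBY8268, with the diagonal where they are equal. Called mating genes such as STE2 lie far above the diagonal, MDH2 and URA1 lie near 0 on the RM11a axis and near -3 on the other, and the called Ty frames fall into a low and a higher cloud.

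The mating-type genes placed RM11a as an a cell. STE2, the receptor for alpha-factor, read 9.24, 7.48 and 7.49 on the 3 RM11a arrays, and the highest mean of the 10 other strains with a value was 1.36. MFA1, which encodes the pheromone a-factor, read 4.22, 4.99 and 4.36, and STE6, its exporter, read 4.60, 4.55 and 5.13. MFA2, the other a-factor gene, read 7.68, 8.02 and 7.09 but was measured in too few other strains to be tested. All 3 a-specific genes tested were higher than in the other strains (MFA1 was no longer called with slide series as a factor), and SAG1, the alpha-cell agglutinin, read -0.07 on both arrays with a value.

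Haploid-specific genes were high in RM11a and in YJM789. Of 7 tested, 5 were higher than in the other strains and none was lower (4 without replicate 3), with a median difference of 1.26. STE4, the beta subunit of the pheromone G protein, read 5.21, 2.89 and 2.88, and STE5, the scaffold of the kinase cascade, read 3.49, 3.06 and 2.85, while YJM789 had means of 2.98 and 3.22. STE12, the transcription factor of the pathway, read 1.39, 1.57 and 1.79. Of 10 tested pheromone-responsive genes 7 were higher and none was lower. TEC1, which directs filamentation genes, read 3.72, 4.06 and 3.39 and exceeded the other strains by 3.35 ± 0.24 (SE, limma adjusted p = 9.404e-13). The G protein alpha subunit gene GPA1 was not called (difference 0.06 ± 0.33). Set against YJM789 alone, none of the 7 haploid-specific and 8 pheromone-responsive genes tested was called in limma, where 40 of 4236 genes were higher (0.944%) and 89 were lower (2.1%). At an unadjusted p under 0.05, 0 of the 7 and 3 of the 8 differed, against 16.1% of all genes. SST2, which desensitizes cells to pheromone, read 2.34 and 2.06 in RM11a and had a mean of 3.10 in YJM789. TEC1 had a mean of 3.72 in RM11a and of 3.73 in YJM789. RDH54, a DNA translocase of meiotic and mitotic recombination, followed the same pattern, with 3.51, 2.72 and 2.71 in RM11a and a mean of 3.26 in YJM789.

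Several genes that part daughter from mother cells were far lower in RM11a than in most strains. DSE2, a daughter-specific glucanase-like protein, read -4.83 and -5.25 on the arrays with a value, 3.39 ± 0.26 below the other strains (limma adjusted p = 9.404e-13). The endochitinase CTS1 read -3.92 and -4.35, and both values were below the mean of every other strain, the lowest of which was -2.67 in YJM789. SCW11, a cell wall glucanase, read -3.71, -4.20 and -3.06, and DSE4, another glucanase, read -2.79, -3.04 and -3.03. These 4 of 12 tested genes of the list were lower and AMN1 was higher, and without replicate 3 the counts were 5 and 1. The remaining tested members included EGT2 and DSE3, with differences of -0.17 ± 0.15 and -0.07 ± 0.22 that were not called. PRY3 read -2.73 and -2.71 on replicates 1 and 2 but 0.63 on replicate 3. DSE1 had no value on any RM11a array, although the 16 other strains had means from -3.33 to -0.83.

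AMN1 read 0.44, 0.24 and -0.06 in RM11a and so lay at the level of DBY8268. The other strains had a median of -1.13, and RM11a exceeded their mean by 1.21 ± 0.20 (limma adjusted p = 2.699e-05). YJM789 alone was higher than RM11a, at 0.41. It was also the lowest of the other strains for DSE2 (-5.21, from a single array), CTS1, SCW11 (-3.21) and DSE4 (-2.68). Tested against YJM789 itself, RM11a differed in CTS1 (-1.47, limma adjusted p = 0.002461) but was not called for SCW11, DSE4 or AMN1. DSE2 had too few YJM789 values for that test. The plot of named genes by array shows how far these strains lay from the other 15.

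**Figure D2:**
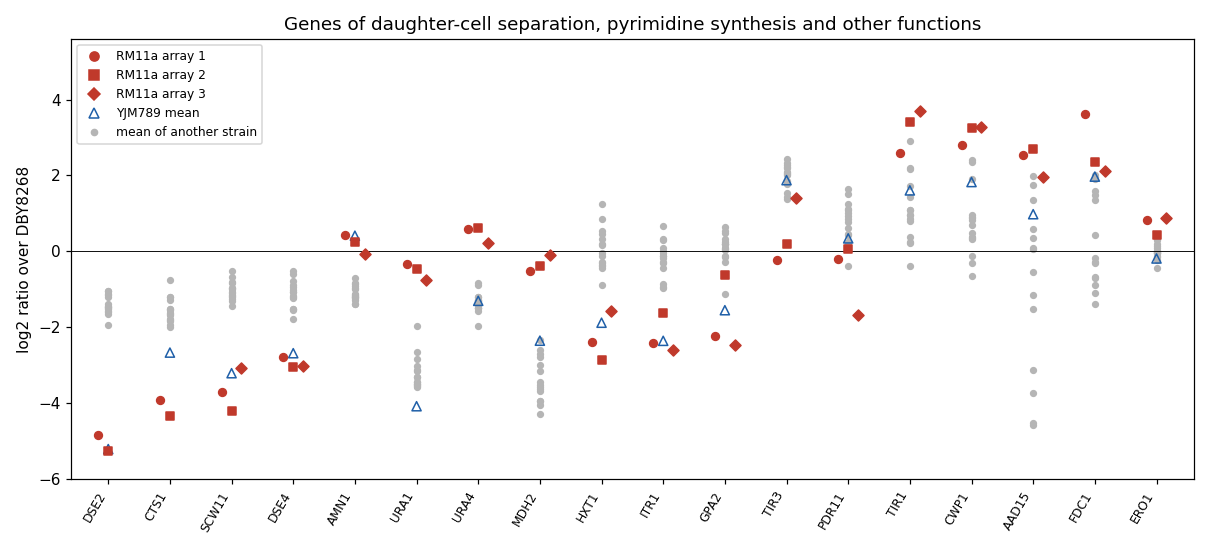
Log2 ratios over DBY8268 of 18 named genes, with the 3 RM11a arrays as filled red symbols, the YJM789 mean as an open triangle and the means of the other strains as grey points. RM11a and YJM789 lie together below the other strains for DSE2 (a single YJM789 array), SCW11, DSE4, HXT1 and ITR1. For URA1, URA4 and MDH2 the RM11a arrays stand above every other strain, YJM789 included.

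A pair of genes of pyrimidine synthesis, URA1 and URA4, set RM11a apart from every other strain. URA1, dihydroorotate dehydrogenase, read -0.34, -0.47 and -0.76 in RM11a, while the other strains ranged from -4.08 to -1.97 with a median of -3.37. URA4, dihydroorotase, read 0.60, 0.61 and 0.23 against a range of -1.96 to -0.84. Both were called against the other strains, by 2.72 ± 0.38 and 1.81 ± 0.18 (limma adjusted p = 1.23e-06 and 9.156e-10), and neither was called against DBY8268. They were also called against YJM789 alone and within the slide series. The other 8 tested members of the list were not called, and the list median of RM11a (-0.01) was within the other strains (-0.69 to 0.07). Among these were URA2, the first enzyme of the pathway (-0.02, -0.13 and -0.37), and PPR1, the activator of URA1 and URA4 (difference 0.20 ± 0.38). URA3, which encodes the decarboxylase that completes UMP synthesis, had no value on any RM11a array, whereas it had values on 50 of the 51 other arrays, where the strain means ran from -1.27 to -0.05.

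In all, 85 genes lacked a value on every RM11a array but had one in all 16 other strains. URA3 and LEU2, a leucine synthesis enzyme, headed them by the number of other arrays with a value (50 and 48). They were followed by PAU2 and YOR338W (48 each) and by MEP2, MRX18, PIP2, PTP3, SSF1 and YGR237C (47 each). A missing value can come from a spot that failed the quality filter in either channel, and it was not read as a low level. The endonuclease gene HO was measured in 4 other strains and not in RM11a. LEU1, the enzyme before LEU2 in leucine synthesis, read 1.74 and 1.86 and was higher than in the other strains (1.47 ± 0.36, limma adjusted p = 0.004108), which it no longer was with each array centred on its median. It was the 1 called gene among 11 tested for branched-chain amino acids. BAT1 and OAC1, a transaminase and a mitochondrial carrier, had differences of 0.44 ± 0.19 and 0.61 ± 0.22 that were not called.

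Sugar metabolism and nutrient uptake gave both kinds of difference. MDH2, the cytosolic malate dehydrogenase of gluconeogenesis, read -0.51, -0.39 and -0.09 in RM11a, near the level of DBY8268, and every other strain lay between -4.29 and -2.34. The difference of 2.98 ± 0.41 (limma adjusted p = 1.035e-06) held without any 1 replicate (2.86 to 3.07). YJM789, at -2.35, was among the closest to RM11a, and the difference from it, 2.02, was not called (limma adjusted p = 0.01979). HXT1, the low-affinity glucose transporter, read -2.38, -2.87 and -1.58, the lowest mean of all strains. ITR1, the inositol permease, read -2.41, -1.63 and -2.61. The nutrient-sensing G protein gene GPA2 read -2.24, -0.61 and -2.47, and YCF1, a vacuolar pump for glutathione conjugates, read -2.14, -1.27 and -2.07. For these 4 genes YJM789 lay next to RM11a (-1.88, -2.36, -1.55 and -2.23), and none was called against it. Of 7 hexose transporter and sensor genes tested, HXT1 was the 1 called. HXT6, HXT7 and HXT4 had differences of 1.76 ± 0.81, 1.30 ± 0.61 and 1.01 ± 0.71 that were not called. THI7, the thiamine transporter, was lower by 2.22 ± 0.55, and it was lower still in YJM789.

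Genes of the cell wall and of hypoxic growth split in opposite directions. Of 9 tested, 2 were higher and 2 were lower. TIR1, a cell wall mannoprotein induced by cold and low oxygen, read 2.58, 3.40 and 3.71 and was higher by 2.09 ± 0.50 (without replicate 3, 1.85 with a limma adjusted p = 0.05058). SUT1, which promotes sterol uptake, read 4.01 and 1.37. TIR3, a relative of TIR1, was lower, at -0.22, 0.19 and 1.40 against 1.37 to 2.43 in the other strains, and the difference of -1.50 grew to -1.97 without replicate 3. PDR11, a sterol-importing transporter encoded beside TIR3, was lower by 1.36 ± 0.25 (without replicate 3, -0.82 with a limma adjusted p = 0.03856). CWP1, a major cell wall mannoprotein, read 2.81, 3.24 and 3.28, all above the highest other strain (2.42). YJM789 had a CWP1 mean of 1.83, and the difference from it, 1.28, was not called. MSB2, a mucin-like sensor at the plasma membrane, read 1.82, 1.91 and 3.89, and YJM789 had a mean of 2.71. Of 26 tested genes of ergosterol synthesis ERG28, a scaffold of the sterol demethylation enzymes, was the 1 called. It read 4.92, 2.29 and 2.63, and without replicate 1 its difference fell from 1.25 to 0.43.

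Among mitochondrially encoded frames ATP8 separated RM11a from every other strain. Of 28 such frames on the arrays, 17 had a value in RM11a and 7 could be tested, and ATP8 was the 1 called. ATP8, a subunit of the proton channel of ATP synthase, read -7.23, -3.70 and -5.37, and the lowest mean of the other 16 strains was -2.17. The difference was -5.03 ± 0.61 (limma adjusted p = 1.266e-07), and it ran from -5.90 to -4.14 when each replicate was left out. It was also called within the slide series and against YJM789 alone (-5.67). The probes were designed against the S288c genome. Whether a sequence difference at the ATP8 probe lowered its ratio was not tested here. COX1, COX2 and OLI1, which encode 2 subunits of cytochrome c oxidase and a further subunit of ATP synthase, lay within the range of the other strains, with differences of -0.30 ± 0.41, -0.04 ± 0.43 and 0.11 ± 0.38.

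A further 10 mitochondrial frames had a value on replicate 2 of RM11a alone and were not tested. ATP6, which shares a primary transcript with ATP8 and COX1, read -2.47 there, below the lowest of 16 strain means (-0.13) and below all 48 other array values, the lowest of which was -1.42. VAR1, the mitochondrially encoded ribosomal protein, read -1.45, below the lowest strain mean (-0.28) but not below the lowest of 45 other array values (-1.93). COB and COX3 read 1.30 and 1.82, within the other strains. Of the 7 intron frames with a value, 5 read below -4: AI1 read -6.95, AI3 -4.60, AI4 -5.90, AI5_ALPHA -5.96 and SCEI, the omega homing endonuclease of the large ribosomal RNA gene, -4.93. For each of them some other strains were as low, since 6 of 16 strains had a mean below -3 for AI1, 5 for AI3, 8 for AI4 and 12 for AI5_ALPHA, and 10 of 15 for SCEI. AI2, measured on replicates 1 and 2, read -1.58 and -1.29, and BI4 read 1.80 and -0.14. The uncharacterized frames Q0010 and Q0297 read -1.67 on replicate 2 and 1.19, 0.97 and 2.30 on the 3 arrays.

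**Figure D3:**
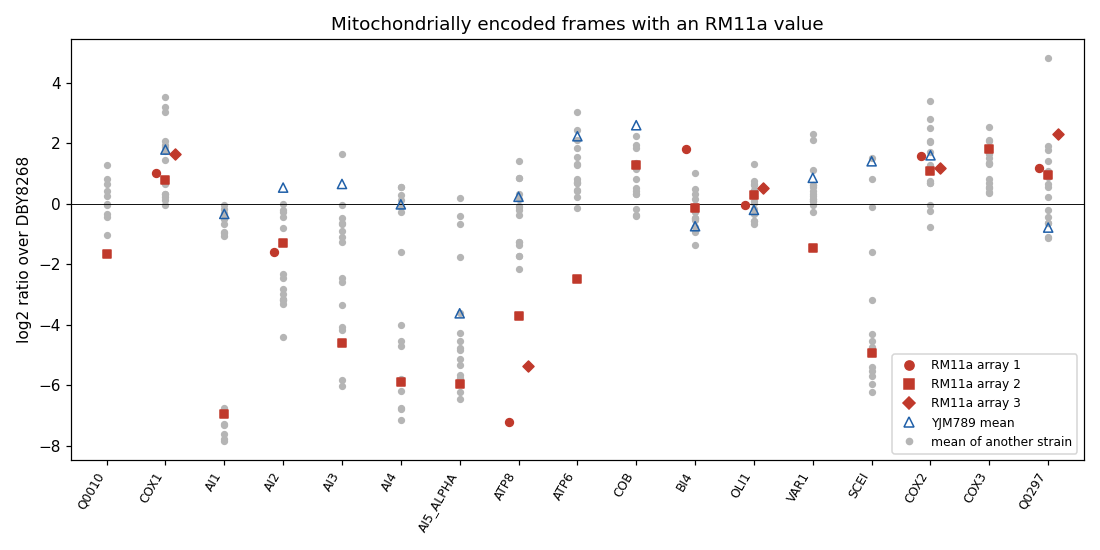
Log2 ratios over DBY8268 of the 17 mitochondrially encoded frames with an RM11a value, with RM11a arrays in red, the YJM789 mean as an open triangle and the other strain means in grey. All ATP8 values of RM11a lie below every other strain, the intron frames AI1 to SCEI spread over the strains from near 0 to below -6, and COX1, COX2 and OLI1 of RM11a lie among the other strains.

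Few nuclear genes for mitochondria were called against the other strains. Of 15 nuclear genes of ATP synthase, 8 of cytochrome c oxidase, 8 of other electron transport, 63 of the mitochondrial ribosome and 18 of the TCA cycle and retrograde response tested, none was called in limma, and at an unadjusted p under 0.05 2 of these 112 genes were higher and 13 lower, against 16.7% and 7.86% of all genes. Their list medians lay between -0.13 and 0.31, against 0.09 over all genes. Each list median was lowest on replicate 3, from -0.70 for the mitochondrial ribosome to -0.065 for cytochrome c oxidase. Without replicate 3 the list medians lay between -0.01 and 0.40, against 0.12 over all genes, and again no gene was called. Against DBY8268, 5 of the 8 cytochrome c oxidase genes, 5 of the 9 cytochrome bc1 genes and 8 of the 63 mitochondrial ribosome genes were higher. So were 2 of the 15 ATP synthase genes, 2 of the 8 of other electron transport and 0 of the 18 of the TCA list. None of these genes was lower, and over all genes 6.57% were higher and 4.99% lower. HAP4, the activating subunit of the HAP complex that drives respiratory genes, differed from the other strains by -0.10 ± 0.29. HAP1, the haem-responsive activator, read -2.37, -2.42 and -3.23, low against DBY8268 (limma adjusted p = 1.498e-09) but not called against the other strains, whose median was -1.74. The 1 call among 9 tested genes of the bc1 complex and the 1 among 26 of mitochondrial gene expression were lost without replicate 3, where CBS1, a translational activator of COB, was called instead (1.46, limma adjusted p = 0.004694). QCR10, a bc1 subunit, read 1.48, 1.91 and 4.26, and without replicate 3 its difference fell from 1.46 to 0.60. MRS1, a splicing factor for mitochondrial introns, read 0.14, -0.09 and -2.59, and its difference of -1.47 became -0.60. ATP12, a chaperone for ATP synthase assembly that the list did not hold, read 0.64, 0.59 and -4.24, and its difference of -1.78 became -0.16.

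**Figure D4:**
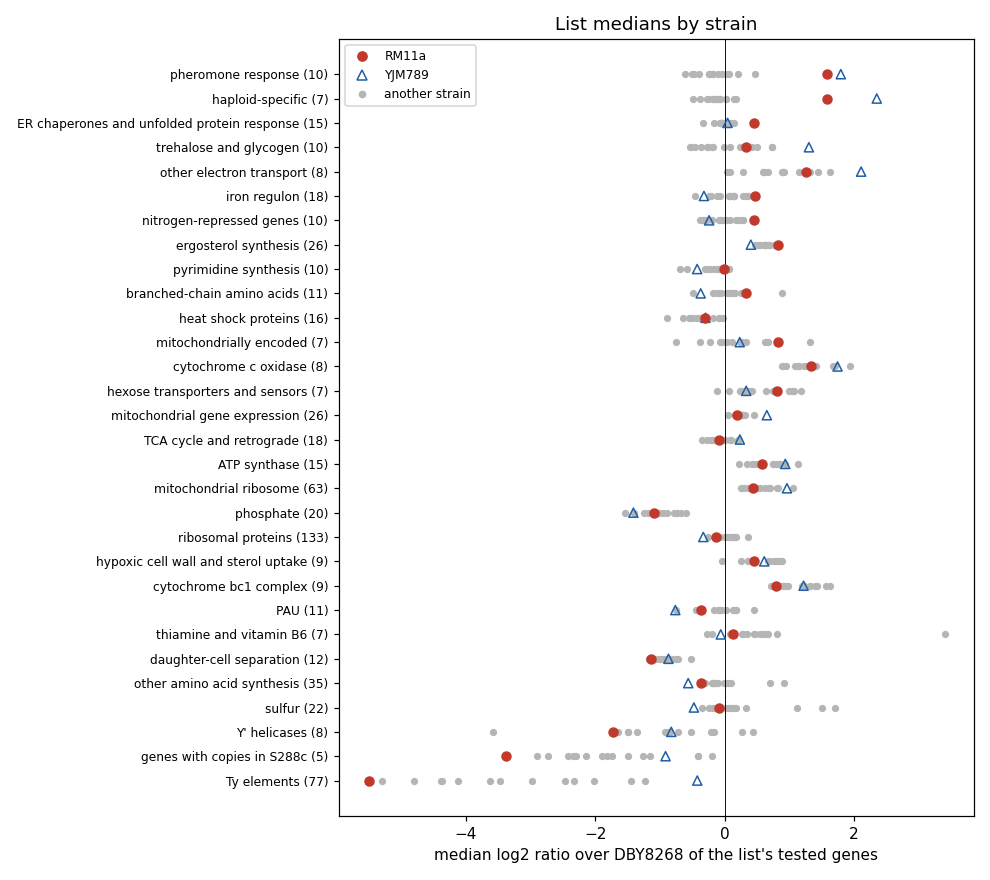
Median log2 ratio over DBY8268 of the tested genes of each list with at least 5 of them (number in brackets), for RM11a in red, YJM789 as an open triangle and the other strains in grey, in order of the median difference between RM11a and the other strains. RM11a and YJM789 stand apart from the rest for the haploid and pheromone lists, and RM11a is at the low end for Ty frames and the high end for chaperones of the endoplasmic reticulum.

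Folding genes of the endoplasmic reticulum lay slightly above the other strains. Of 15 tested, 14 had positive differences and the median difference was 0.58, but the 1 called gene was ERO1, the oxidase that drives disulfide formation (0.83, 0.44 and 0.87, difference 0.75 ± 0.17). The median ratio over DBY8268, 0.45, was the highest of the 17 strains. Without replicate 3 the median difference was 0.56 and 0 genes of the list passed the threshold in limma, while 9 of the 15 were higher at an unadjusted p under 0.05, against 13.1% of all genes in that fit. The call of ERO1 was also lost without replicate 1. KAR2, the main chaperone of that compartment, read 0.96, 0.64 and 1.83 and had a difference of 0.88 ± 0.27 (limma adjusted p = 0.0225). Of 16 cytosolic and mitochondrial chaperones the cognate Hsp70 genes SSA1 and SSA2 were lower, by 1.07 ± 0.25 and 1.12 ± 0.27, and YJM789 had nearly the same levels (-1.80 and -1.49 against -1.88 and -1.75). These genes are close paralogues, and cross-hybridization between their probes was not tested. DDR48, a stress-induced protein, read 2.57, 2.18 and 3.53 in RM11a and 2.58 in YJM789.

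Most genes of sulfur metabolism and of lysine, arginine, histidine and aromatic amino acid synthesis were not called. Of 22 tested sulfur genes, 17 had negative differences, with a median of -0.60. The list median of RM11a over DBY8268 was -0.08, and those of M22, YJM269 and SB were the highest (1.70 in M22 to 1.11 in SB). MET10, a sulfite reductase subunit, and SAM1, S-adenosylmethionine synthetase, were lower by 1.65 ± 0.41 and 0.73 ± 0.17, and MET10 was no longer called against the median of the other strains, within the slide series or with slide series as a factor. Of 35 genes for lysine, arginine, histidine and aromatic amino acids, 31 had negative differences with a median of -0.42, and 0 were called in limma (3, all lower, with arrays centred on their medians, and 3 without YJM789), while 14 were lower at an unadjusted p under 0.05, against 7.86% of all genes. The other strains ranged widely here, from -0.56 in YJM789 to 0.91 in YJM269 as list medians. Of 133 ribosomal protein genes RPL3 and RPL40A were lower by 1.05 ± 0.26 and 1.06 ± 0.25, and the list median was -0.17, which turned to 0.12 within the slide series. In the phosphate list 12 of 20 genes were lower than DBY8268, against 4.99% of all genes. The list median of RM11a, -1.095, was within the other strains (-1.54 to -0.60). PHO5, the secreted acid phosphatase, was the 1 gene of the list lower than the other strains (-3.44, -1.51 and -3.64, difference -1.35 ± 0.34).

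Several iron uptake genes were far higher on replicate 3 than on the other RM11a arrays. FRE2, a ferric reductase, read 5.51 and 6.85 on replicates 2 and 3 and was the 1 called gene of 18 tested (4.25 ± 1.10, limma adjusted p = 0.008287). It was thus high on replicate 2 as well, had no value on replicate 1 and could not be tested without replicate 3. FIT3, a cell wall mannoprotein that retains siderophore iron, read 0.57, 2.00 and 7.97, FET3, the multicopper ferroxidase, read -1.65, -0.56 and 5.10, and FIT1 read 0.59, 0.55 and 5.96. On YJM789 replicate 2, FIT3 and FET3 read 3.26 and 3.79, against -1.14 and -1.70 as means of the other YJM789 arrays, and FIT1 read 0.67, against -1.31. FIT2, another such mannoprotein, read 4.32 on RM11a replicate 3 but -3.48 on YJM789 replicate 2, where its other arrays had a mean of -2.85. Without replicate 3 the list median went from 0.30 to -0.31.

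Reading frames of Ty elements, the retrotransposons of yeast, fell into a pair of groups in RM11a. Of 77 tested, 50 had an RM11a mean between -7.79 and -4.26 and 27 had a mean between -0.82 and 1.22, with none in between. The frames were split by these RM11a means, so the counts and ranks of RM11a within each group are not independent of the split. Of the low frames 47 were lower than in the other strains, with a median difference of -2.40, and all 50 were lower than in DBY8268. Of the 27 higher frames 25 were higher than in the other strains, with a median difference of 2.06 (14 of the 77 frames were higher and 46 lower without replicate 3). None of these 27 was called against DBY8268 in limma, and at an unadjusted p under 0.05 9 were higher and 1 lower, against 20.5% and 12.4% of all genes. The RM11a median of the low frames, -6.24, was the second lowest of 17 strains after M22 (-6.53), and the other strains rose to -1.12 in YJM789. For the higher frames RM11a had a median of -0.09, above Y1 and YJM269 (both -0.19) and YJM789 (-0.25), and M22 was lowest (-4.26). Without replicate 3 the RM11a median was -0.49, below those 3 strains.

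The frame farthest below the other strains was YDR316W-A, at -7.62 and -7.96. Among the higher frames YDR261W-A read 0.49, 1.10 and 2.07 and YCL019W read -0.69, -1.06 and 0.13. The low frames had a value on replicate 3 in 13 of 50 cases, and the higher frames in all 27. Within the slide series 22 frames were higher and 22 lower. Frames of 1 Ty family are nearly identical in sequence, so their probes may report the same transcripts, and the counts are not counts of independent genes.

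**Figure D5:**
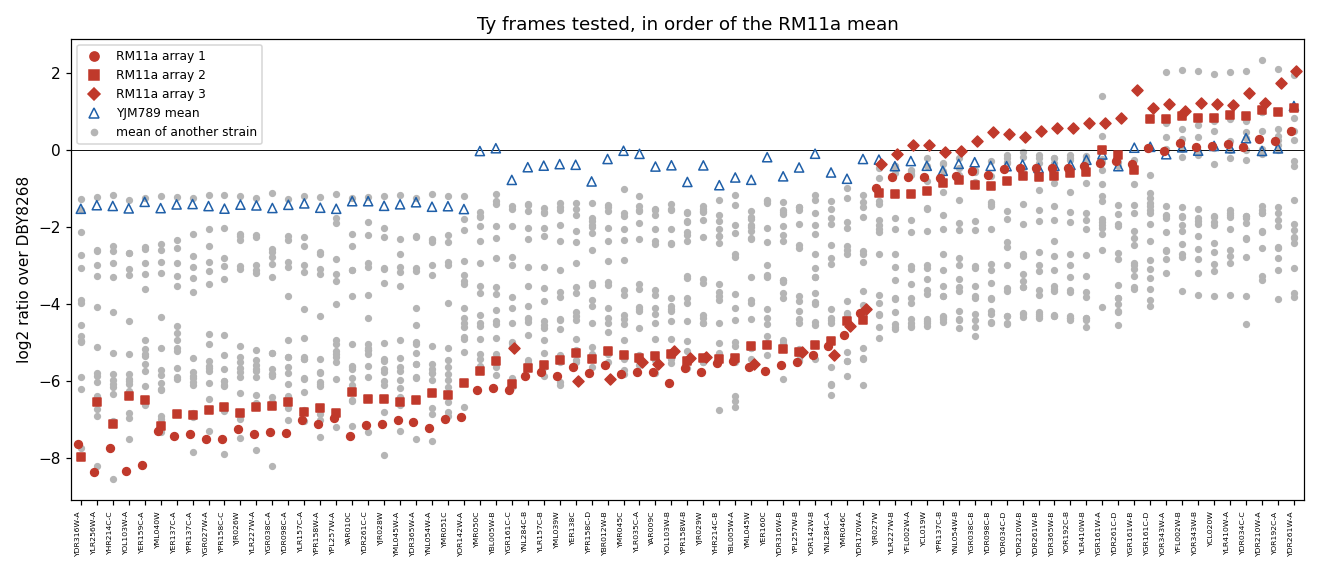
Log2 ratios over DBY8268 of the 77 tested Ty frames, ordered by the RM11a mean, with RM11a arrays in red, the YJM789 mean as an open triangle and the other strain means in grey. The RM11a means step from at most -4.26 for 50 frames to between -0.82 and 1.22 for 27. Medians of the other strains ran from -6.53 to -1.12 over the 50 frames and from -4.26 to -0.19 over the 27.

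Other repeated genes gave few calls. Of 8 subtelomeric Y' helicase genes, which also resemble each other closely, all 8 had negative differences and YRF1-2 and YRF1-7 were lower, by 0.88 ± 0.19 and 0.82 ± 0.21. YIL177C, a subtelomeric frame, read -2.24, -2.09 and -2.92. ENA1, ENA2 and ENA5, sodium pump genes which lie in tandem in the laboratory genome, had RM11a values from -4.10 to -2.90 and were lower than in DBY8268, but none was called against the other strains. The metallothionein genes CUP1-1 and CUP1-2 had differences of 1.73 ± 0.57 and 0.82 ± 0.74 that were not called.

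AAD15, one of a family of putative aryl-alcohol dehydrogenases, was the farthest above the other strains of the genes outside these lists, at 2.53, 2.71 and 1.96 and a difference of 3.20 ± 0.55 (limma adjusted p = 0.0001006). Other strains ranged from -4.58 to 1.99. Its relatives AAD3, AAD4 and AAD14, chosen after their values were seen, were also higher, by 2.92 ± 0.66, 1.67 ± 0.25 and 1.37 ± 0.27, and the probes of this family may cross-hybridize. FDC1, ferulic acid decarboxylase, read 3.63, 2.35 and 2.11, all above the highest other strain (2.00). SPC1, a signal peptidase subunit, read 4.13, 2.39 and 4.31. YJM789 had means of 0.98, 1.97 and 2.59 for AAD15, FDC1 and SPC1, and none of them was called against it.

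Some large differences were carried by single arrays. GYP8, a GTPase-activating protein, read 4.53, 1.33 and 0.56, and its difference fell from 2.18 to 0.99 without replicate 1. SED1, a cell wall protein, and MMO1 read 6.04 and 5.36 on replicate 3 but at most 1.18 on the others, and without replicate 3 their differences fell from 2.72 to 1.01 and from 2.68 to 1.12, neither called. SIR3, a silencing factor, read -1.16, -0.89 and -2.69, and its difference moved from -1.63 to -1.07. DAP2, a vacuolar aminopeptidase, moved from -1.31 to -0.85. Calls that ended without replicate 3 with a smaller move were those of YGL193C, DDR48, SPC1, YDR271C, YDL038C, PRM5, SSA2, PHO5, SAM1, YRF1-2, YRF1-7, RPL40A, RPL3 and the Ty frame YPL257W-A. Without replicate 1 the calls of YGL193C, SPC1, TIR3, DAP2, PRM5, SSA1, SSA2, PHO5, SAM1, FRE2, YRF1-2, YRF1-7, RPL40A and RPL3 ended, and without replicate 2 those of YGL193C, DAP2, PRM5, TIR1, SAM1 and YRF1-7. FRE2 had no value on replicate 1, and its difference of 4.25 was the same in that fit. The named frames YGL193C, YBL107W-A and YDR271C were higher by 3.01 ± 0.70, 2.68 ± 0.35 and 2.12 ± 0.45, and YDL038C and YLL053C were lower by 2.98 ± 0.61 and 2.93 ± 0.60. Against YJM789 alone YGL193C, YBL107W-A, YDL038C and YLL053C differed by -0.36, 0.05, -2.39 and 0.105, none of them called. YDR271C was not tested against it. Of these 5 frames, YDL038C had every RM11a value below every other strain.

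Set directly against YJM789, RM11a was lower for 50 of 77 Ty frames and for SAG1 (-5.63), which marks the alpha mating type of YJM789. It was also lower for the flocculin genes FLO1 and FLO5 (differences of -6.49 and -4.28), both chosen after their values were seen and both near-identical in sequence over long stretches. In RM11a FLO1 read -0.38 and -1.15, within the other strains, and the YJM789 mean of 5.72 was the highest of them. URA1, LEU1, GYP8, URA4 and ERG28 were higher in RM11a than in YJM789, by 3.56, 2.97, 3.23, 1.78 and 1.95. PHO81, an inhibitor of the phosphate-sensing kinase, read 0.79, 0.29 and 1.42 in RM11a and -4.16 in YJM789, a gap chosen after it was seen (limma adjusted p = 0.0009946). Both strains are haploid and shared slides, so ploidy and slide cannot be told apart in what they have in common.

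The called genes were spread over the chromosomes. The median difference per nuclear chromosome ran from -0.03 on I to 0.14 on IV. Leaving Ty frames aside, 7 pairs of neighbouring tested genes were called in the same direction and no run was longer. They included GYP8 beside STE2, MGM1 beside STE4, FDC1 beside YDR541C and PDR11 beside TIR3. Of the single genes followed by name, MKT1, RSF1 and SAL1 were not called (differences -0.13 ± 0.17, 0.25 ± 0.42 and 0.74 ± 0.37), the phosphate transporter PHO84 read -3.21, -3.36 and -1.49 and was lower than DBY8268 alone, FLO8 had 1 value (1.41), and YHB1 had none.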

How the data were processed

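Each array compared 1 strain with DBY8268 on spotted long oligonucleotides. The authors deposited log2 ratios, strain over DBY8268, 1 per gene and array; per the methods they kept unflagged spots above a pixel-correlation minimum and applied regional mean-centering. Dyes were inverted in replicates, and mating-type genes ran the same way on RM11a arrays of both orientations. Mean-centering hides shifts of all transcripts together, and the filter leaves gaps. Replicates were separate cultures.

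Here limma 3.58.1 (R 4.3.3) fitted 1 coefficient per strain over 54 arrays (prior degrees of freedom 4.49). RM11a was contrasted with the plain mean of the other strains (at least 2 RM11a arrays and 8 other strains) and with 0, two-sided, Benjamini-Hochberg, false discovery rate 0.01. The study's limma test used the same rate. The contrast with YJM789 alone was added after seeing the data. SE is that of the moderated contrast. It rests on 1 variance per gene shared by all strains, so it can be smaller than the RM11a arrays alone would give.

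Of 6264 genes, 5824 matched R64 symbols (pandas 2.3.3, Python 3.11.15), and 440 kept their IDs. Chromosomes and the order of neighbouring genes were taken from R64. The array's build is not given in the sources used here. Members and lists were chosen with earlier results of these data known. Named were the mating-type and mitochondrial genes, the 15 called genes farthest above and the 15 farthest below the other strains with 1 direction on all RM11a arrays, up to 4 called genes per list, 13 single genes, and at most 10 of the genes without an RM11a value. No column of another series was present. Scripts were tested on simulated data. The number of arrays limits precision; the median SE of a difference was 0.25. Some list members are not reported here.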

Additional observations from a re-analysis of the deposited data

How the results depend on the processing

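The count of 284 genes against the other strains became 564 at a false discovery rate of 0.05, 164 with all 3 RM11a arrays and all 16 strains required (fewer genes tested), 76 within the slide series (fewer arrays), 129 against YJM789 alone, and 13 with the variance of the RM11a arrays alone. Leaving out 1 RM11a array gave 133 to 202, lowest without replicate 1; leaving out YJM789 gave 383. The count of 524 against DBY8268 became 978, 332 and 122 under the first, second and last of these settings, and 233 to 376 with arrays left out. Deviations from the strain means of same-numbered RM11a arrays and other strains' arrays had a median r of 0.016 over 48 pairs (-0.622 to 0.377). With other numbers the median was -0.006 over 105 pairs. Replicate 3 weighs on the RM11a mean and so on all its deviations, and these values cannot decide on pairing. Over all strains 164 of 411 same-numbered pairs had r over 0.1 (median 0.062), against 147 of 960 with other numbers (median -0.029). Same-numbered pairs thus exceeded 0.1 more often, and whether the numbers pair samples was not settled. The 3 pairs of RM11a and YJM789 arrays with the same number and slide had r from -0.622 to 0.377. The main fit did not pair samples by number. A replicate block gave 315 and 573 calls, and of 65 named called genes it ended the calls of ATP12 and FRE2. Of 67 named called genes, 57 lost the call with the variance of the RM11a arrays alone, which has few degrees of freedom. With arrays scaled to a common spread 15 lost it, as did 24 of 66 without replicate 3 and 42 of 63 within the slide series. None changed direction in these settings. Against YJM789 alone 15 of 60 named called genes kept the call. Slide series as a factor ended the calls of MMO1, DAP2, MFA1, MET10 and FRE2, and the median of the other strains those of MMO1, PHO5, MET10, THI7 and YPL257W-A. Against YJM789 alone the direction turned, with no call, for RDH54 (-0.28), YGL193C (-0.36), MSB2 (-0.17), YLL053C (0.10), ITR1 (0.14), YCF1 (0.40), STE5 (-0.087), SST2 (-0.90), STE12 (-0.13), TEC1 (-0.003), THI7 (0.88), AMN1 (-0.21), HAP4 (0.14) and PHO84 (0.55). Differences not called turned for GPA1 with median centring (-0.068), for MKT1 (-0.31 to 0.12 with 1 replicate left out, positive without replicate 3, and 0.10 without YJM789 replicate 2 as well), for PHO84 with scaling (0.008) or with 1 replicate left out (-0.76 to 0.17, positive without replicate 1 or 2), and for RSF1 with slide series as a factor (-0.15) or within it (-0.029). The cause was not tested. Settings that involve YJM789 alone or its replicate 2 were chosen after seeing the data. Genes with low signal in either channel may lack values, so signal over background limits what could be tested.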
